A study of Danio rerio with 3 samples.

Results

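The cells described here were 52 single cells from the zebrafish trunk that fell at the ends of the range of spi2 RNA, 30 with much of it and 22 with little. They were taken from 93 cells with deposited counts, all sorted at 36 hours post fertilization (hpf) from embryos of the line Tg(spi2:Gal4;UAS:GFP/kdrl:mCherry), in libraries that the deposited cell table lists as kdrl+spi2+. Every cell in both groups therefore carried the same 2 reporters and came through the same gate. GFP depends on Gal4 made under spi2 control, so the gate selected reporter protein and not spi2 RNA. The labels give no genotype other than the reporter line and no treatment. RNA was counted with STRT-seq, which processes sorted cells in plate wells. There are 2 libraries, DP 1 and DP 2. Nothing in the labels says that they came from separate clutches or days, so any p-value rests on 2 libraries alone, whose spread may be technical.

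The gene spi2 encodes a transcription factor of the ETS family, which also contains PU.1 (spi1b) and many regulators of endothelial and blood cells. In the vertebrate embryo, blood stem and progenitor cells arise when hemogenic endothelial cells in the floor of the dorsal aorta round up and leave the vessel wall. In zebrafish runx1, gata2b and gfi1aa act at that step, myb marks the emerging progenitors, and spi1b directs progenitors towards myeloid fates.

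Members were chosen by measured values. A cell was kept if it had 500 or more detected genes, no count of the endothelial cadherin gene cdh5 and npsn, a gene abundant in zebrafish neutrophils, under 500 CPM (counts scaled to the same total in every cell). This left 70 cells, 42 of DP 1 and 28 of DP 2. Of these, 14 of DP 1 and 16 of DP 2 had spi2 at 200 CPM or more and are called spi2-high. Another 14 of DP 1 and 8 of DP 2 had spi2 under 50 CPM and are called spi2-low. The remaining 18 cells, 14 of DP 1 and 4 of DP 2, lay between the limits and entered no test. Of the 93 cells, 5 had too few genes, 11 had cdh5 counts and 7 had high npsn.

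Because spi2, cdh5 and npsn made the groups, their values only describe them. Summed over cells, spi2 was at 29.0 CPM in spi2-low and 404 CPM in spi2-high cells of DP 1, and at 11.8 and 522 CPM in DP 2. The single spi2-high cells ranged from 211 to 803 CPM in DP 1 and from 208 to 1309 CPM in DP 2. Of the 22 spi2-low cells, 10 had 0 spi2 counts, and for 2 of those the depth was so small that a count of 0 (limit of 3 counts) allows 200 CPM or more. The limits cut a continuous range. The nearest cells were at 44.1 and 49.2 CPM below the lower limit and at 50.1 and 87.8 CPM above it, and at 188 and 199 CPM below the upper limit and at 208 and 211 CPM above it. The cell at 208 CPM had 1 spi2 count in a total of 4818.

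The name of progenitor cells was checked against marker RNA. A count of myb was found in 62 of the 70 kept cells, of the leukocyte gene ptprc in 27, of kdrl in 20 and of runx1 in 7. The endothelial receptor gene kdrl, whose reporter was part of the gate, had low summed levels. In spi2-low and spi2-high cells they were 2.80 and 1.74 CPM in DP 1 and 5.91 and 21.6 CPM in DP 2. A kdrl count was found in 3 of 14 and 2 of 14 of these cells in DP 1 and in 2 of 8 and 7 of 16 in DP 2. A myb count did not set the kept cells apart, since it was also found in 6 of 6 and 3 of 5 cells with cdh5 counts (287 and 93.2 CPM in DP 1 and DP 2) and in 5 of 5 and 2 of 2 cells with high npsn (238 and 58.7 CPM). Some members went against the name. In DP 2, a pair of spi2-low cells had a fixed neutrophil list at 25132 and 11815 CPM, and 1 spi2-high cell had an endothelial list at 4143 CPM. In DP 1, 1 spi2-low cell had the neutrophil list at 4189 CPM, and another, of low depth, had the endothelial list at 2611 CPM. The spi2-high cells reached up to 2621 CPM of the neutrophil list in DP 1 and 2743 CPM in DP 2. The groups are therefore called by their spi2 level alone.

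Depth and RNA quality moved with the groups. The median spi2-low cell had 52293 counts and 2084 detected genes in DP 1, against 118462 counts and 3394 genes in the median spi2-high cell. In DP 2 the medians were 48907 counts and 2268 genes against 58935 counts and 2709 genes. Counts per cell ranged from 20333 to 619712 in spi2-low and from 15439 to 903548 in spi2-high cells of DP 1, and from 7256 to 122975 and from 4818 to 333560 in DP 2. Summed levels weight cells by depth. The deepest cell gave 29.0% of all counts of the spi2-low and 39.2% of the spi2-high cells of DP 1. In DP 2 it gave 24.2% and 23.3%. Mitochondrially encoded genes took a median of 13.1% of counts in spi2-low and 6.42% in spi2-high cells of DP 1, and 9.15% and 4.97% in DP 2. The share was 10% or more in 8 of 14 and 4 of 8 spi2-low cells, against 4 of 14 and 2 of 16 spi2-high cells. The part of depth and of this share in the gene differences was not tested. For some genes and lists, values from cells thinned to equal depth are given beside the main ones.

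**Figure D1:**
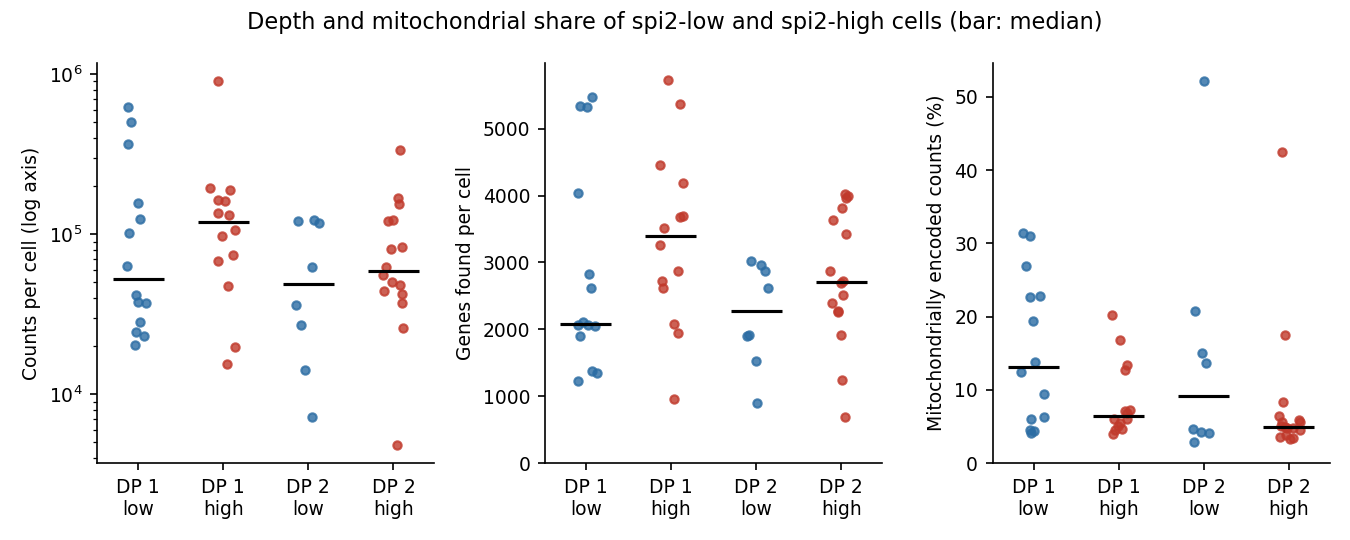
Total counts per cell (log axis), genes found per cell, and the percentage of counts from mitochondrially encoded genes, with 1 point for each spi2-low or spi2-high cell by library and a bar at the median. The groups overlap in every panel, and in both libraries the median spi2-low cell has fewer counts, fewer genes and a larger mitochondrial percentage than the median spi2-high cell.

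To ask which genes differed with spi2, raw counts were summed per library and group, which gave 4 sums, and tested with library as a block. No gene passed. Of 6773 tested genes, 0 were higher and 0 were lower in spi2-high cells at an adjusted p under 0.05 (edgeR quasi-likelihood, Benjamini-Hochberg), and the smallest adjusted p was 0.543. At an unadjusted p under 0.05, 325 genes (4.80% of those tested) were higher and 263 (3.88%) were lower. The other 3 tests run on the same sums did make calls. DESeq2 called 11 genes higher and 14 lower (0.229% and 0.291% of 4803 genes), limma voom 19 and 18 (0.281% and 0.266%), and edgeR's legacy quasi-likelihood method 16 and 15 (0.236% and 0.221%).

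The calls of the other tests overlapped in part. Of 59 genes called by at least 1 of them, 10 were called by all 3. Lower in spi2-high cells in all 3 were spi1b, the granule proteoglycan gene srgn, the chemokine receptor gene cxcr4b, the spermine synthase gene sms, crhbp, nccrp1, rbp5 and si:ch1073-429i10.1. Higher in all 3 were unga, a uracil-DNA glycosylase gene, and si:ch73-335l21.4. Of these 10, unga passed the filter on low counts only through spi2-high cells and rbp5 only through spi2-low cells. Their calls are therefore descriptions. All differences below are fitted log2 values of spi2-high minus spi2-low cells ± SE (n = 2 libraries) from edgeR, and none of them passed its adjusted threshold.

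The libraries had little in common across all genes. Over all tested genes the log2 difference in DP 1 and in DP 2 had a Pearson correlation of 0.057 across genes, which are not independent, and 51.1% of genes went the same way in summed CPM of both libraries. The median fitted difference was 0.05 over all genes, 0.03 in DP 1 alone and 0.27 in DP 2 alone. The genes named from the test were required to go the same way in both libraries, so that their shared direction is no support for them.

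**Figure D2:**
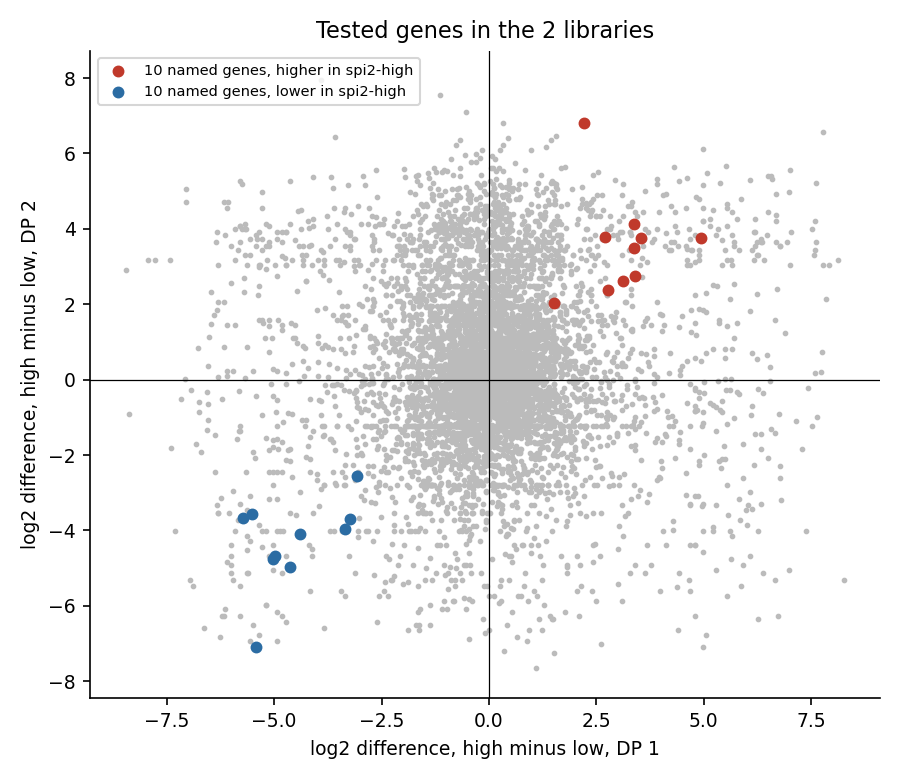
Log2 difference of spi2-high minus spi2-low cells in DP 1 (horizontal) and DP 2 (vertical), with 1 grey point per tested gene and the 10 named genes of each direction in colour. The cloud has almost no common slope (Pearson 0.057), and the named genes lie where both libraries go the same way because the rule required it.

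Among regulators of myeloid fate, spi1b was lower in the sums of cells with high spi2. It encodes PU.1, an ETS-family protein related to that of spi2. Its summed level was 513 CPM (exact Poisson 95% interval 483 to 544) in spi2-low and 49.1 CPM (40.4 to 59.0) in spi2-high cells of DP 1. In DP 2 it was 372 CPM (321 to 429) and 19.5 CPM, the last from 28 counts. The sums of spi2-low cells were thus above those of spi2-high cells in both libraries, with a log2 difference of -3.54 ± 0.43 and of -3.93 in thinned cells. Cells between the limits were at 51.7 CPM in DP 1 and had 0 counts in DP 2.

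Most spi2-low cells did not share this level of spi1b. A spi1b count was found in 9 of 14 spi2-low and 8 of 14 spi2-high cells of DP 1, and in 5 of 8 and 3 of 16 cells of DP 2. After thinning, the numbers were 5 of 14 and 3 of 12, and 3 of 6 and 2 of 15. Levels of 200 CPM or more, a limit set after the values were seen, were reached by 2 of 14 (14.3%, exact Clopper-Pearson 95% interval 1.78 to 42.8) and 3 of 8 (37.5%, 8.52 to 75.5) spi2-low cells. No spi2-high cell and no cell between the limits reached it, with upper limits of 23.2% and 20.6% for the spi2-high cells of DP 1 and DP 2. Those 5 cells held 99.0% and 98.4% of the spi1b counts of the spi2-low group in DP 1 and DP 2. All 7 cells that had been set aside for high npsn also reached 200 CPM of spi1b, and so did 1 of the 11 cells with cdh5 counts.

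**Figure D3:**
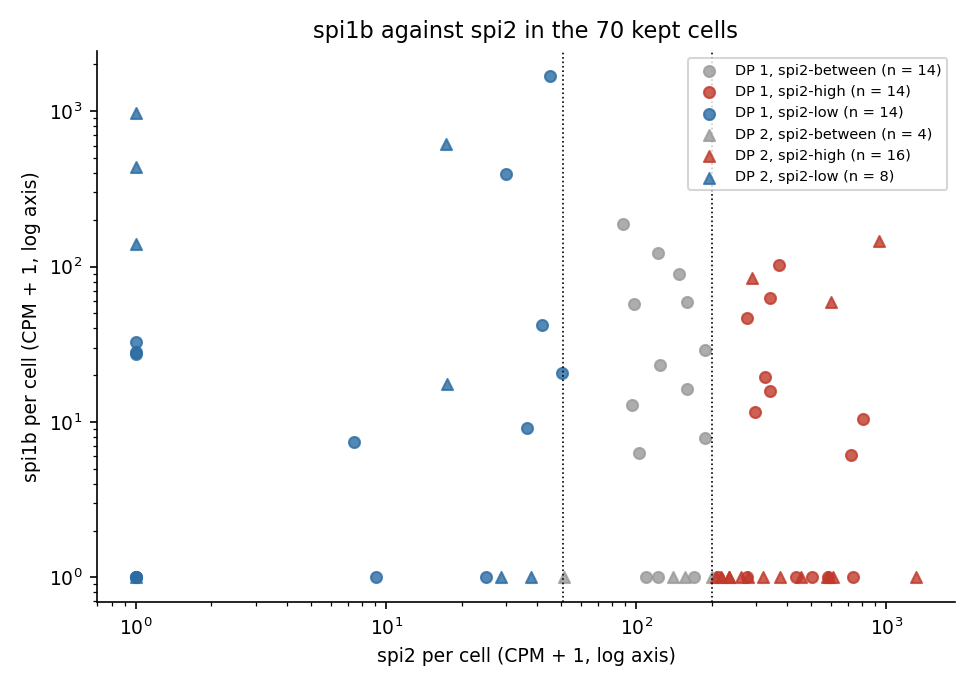
Level of spi1b (vertical) against level of spi2 (horizontal) in each of the 70 kept cells, as CPM + 1 on log axes, with colours for the spi2 groups, circles for DP 1, triangles for DP 2 and dotted lines at the spi2 limits of 50 and 200 CPM. The 5 cells at 200 CPM or more of spi1b all lie left of the lower spi2 limit, and all other cells lie below them.

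The 5 spi1b-rich cells were not alike. Their spi1b levels were 1687 and 395 CPM in DP 1 and 968, 610 and 434 CPM in DP 2. The lysozyme gene lyz, a neutrophil marker, was at 2975 CPM in the first DP 1 cell and at 23179 and 11515 CPM in the first pair of the DP 2 cells, but at 96.8 CPM or less in the other two. By count of 12 fixed neutrophil markers they held 9 and 7 in DP 1 and 8, 8 and 6 in DP 2. These numbers did not set them apart. Counts of 7 or more markers were also held by 3 of 14 cells between the limits in DP 1 and by 1 of 16 spi2-high cells of DP 2. All 5 spi1b-rich cells had myb counts, from 48.4 to 363 CPM, and 0 unga counts.

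Most other members of a pan-myeloid list lay on the same side as spi1b. Of 20 members 17 were tested, 0 passed and 9 were lower at an unadjusted p under 0.05, against 3.88% of all tested genes. In all, 16 were below 0 and 1, the C/EBP gene cebpb, was above it (0.51 ± 0.19). The median difference was -1.50, beside 0.05 over all tested genes. Among those reaching the unadjusted p under 0.05 were spi1b, the C/EBP gene cebp1 (-4.24), srgn (-1.50 ± 0.25), the actin-bundling gene lcp1 (-2.52), ptprc (-2.54), the Fc receptor gamma gene fcer1gl (-3.04), the small GTPase gene rac2 (-0.93) and the cytokine gene il1b (-2.42). The regulator cebpa, which acts in granulocyte commitment, was at 622 and 499 CPM in DP 1 and at 359 and 120 CPM in DP 2 (-0.67 ± 0.38, adjusted p = 0.592 by edgeR quasi-likelihood with Benjamini-Hochberg).

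The median cells of the groups did not show this order. Its summed level was 5813 CPM in spi2-low and 4620 CPM in spi2-high cells of DP 1, and 7377 and 5017 CPM in DP 2. The median single cell was at 3922 and 4565 CPM in DP 1 and at 3214 and 4230 CPM in DP 2, so the median spi2-low cell was the lower one. The mitochondrial share moved with this. In DP 1, the 8 spi2-low cells at 10% or more were at 1274 to 4732 CPM, and the 6 below it at 2818 to 9814 CPM. In DP 2, the 4 cells at 10% or more were at 912 to 1673 CPM, and the 4 below it at 4755 to 17933 CPM. The part of this share was not tested. Without the 5 spi1b-rich cells the median difference of the list was 0.42 over 15 genes, beside 0.10 over all genes tested there. That cut is made on a member of the list and removed spi2-low cells alone, so the value is a description and no test. Without cells holding 7 or more of the 12 neutrophil markers the median was -0.42. Without cells at 10% or more of mitochondrial counts it was -2.15 over 16 genes. These exclusions were chosen after the data were seen.

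Neutrophil markers were higher in the sums of spi2-low cells as well, though high npsn had been excluded. Of 12 markers 8 were tested, 0 passed, and 4 were lower at an unadjusted p under 0.05, against 3.88% of all tested genes: lyz (-3.64 ± 0.88), the metalloproteinase gene mmp9 (-5.05 ± 0.84), the oxidase subunit gene ncf1 (-2.64) and abcb9 (-3.59). Of these, mmp9 passed the filter on low counts only through the spi2-low cells, so that its place among the 4 is a description and no support. The purine phosphorylase gene pnp5a went the other way (1.83). The summed level of the list was 1496 and 353 CPM in spi2-low and spi2-high cells of DP 1 and 6599 and 521 CPM in DP 2. In DP 2, 2 of the 8 spi2-low cells were at 25132 and 11815 CPM. The median spi2-low and spi2-high cells were at 820 and 359 CPM in DP 1 and at 879 and 325 CPM in DP 2. In the cells set aside for high npsn the summed level was 25400 and 28980 CPM. A lyz count was found in all 14 spi2-high cells of DP 1, at a median of 178 CPM, and its source was not tested. The median difference of the list was -2.22 over 8 genes, -0.52 over 5 genes without cells of 7 or more markers and -0.19 over 5 genes without the spi1b-rich cells. The part of neutrophil RNA in the spi1b difference was not tested. Leaving out cells of 7 or more markers, which removes 4 of the 5 spi1b-rich cells, put spi1b at -0.46.

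Of the 10 genes named by rule as lower in spi2-high cells, several came largely from single cells. The gene si:ch1073-429i10.1 was at 1446 and 30.8 CPM in DP 1 and at 839 and 58.7 CPM in DP 2 (-4.60 ± 0.60), and 1 cell held 97.4% and 98.6% of its spi2-low counts. The gene nccrp1 was at 277 and 32.1 CPM and at 784 and 110 CPM (-2.79 ± 0.35), with 89.0% and 52.3% in 1 cell. The gene ch25hl2, named for cholesterol 25-hydroxylase, was at 171 and 6.51 CPM and at 489 and 12.6 CPM (-4.84 ± 0.47), with 82.8% and 52.8% in 1 cell. In each of these a single cell gave at least 50% of the spi2-low counts in both libraries.

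The gene crhbp, which encodes a binding protein for corticotropin-releasing hormone, was at 18.7 and 1.74 CPM in DP 1 and 816 and 51.7 CPM in DP 2 (-3.67 ± 0.40), with 42.5% and 65.2% of its spi2-low counts in 1 cell. The retinol-binding protein gene rbp5 was at 86.0 and 1.74 CPM and at 57.1 CPM and 0 counts (-5.93 ± 0.88), with 98.4% and 93.1% in 1 cell. It passed the filter on low counts only through the spi2-low cells, so that these values are a description. The calcium-binding protein gene s100z was at 105 and 1.74 CPM and at 122 and 7.68 CPM (-4.64 ± 0.71), with 91.6% and 66.1% in 1 cell. The non-muscle myosin gene myh9a (-4.35 ± 0.65) and the sulfotransferase gene sult2st2 (-5.04 ± 0.73) were at 78.8 CPM or less in every sum, as was mmp9. Like rbp5, all of these passed the filter on low counts only through the spi2-low cells, so that their values are a description. In 1 cell lay 96.4% and 45.0% of the spi2-low counts of myh9a and 66.7% and 48.1% of those of sult2st2, and for mmp9 1 cell held 95.7% in DP 1 and nearly as much in DP 2.

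The genes sms, srgn and cxcr4b lie outside that rule and were chosen after their values were seen. Summed levels of sms were 503 and 113 CPM in DP 1 and 491 and 78.9 CPM in DP 2 (-2.21 ± 0.32). Those of srgn were 854 and 327 CPM and 1960 and 514 CPM (-1.50 ± 0.25), with a count in 13 of 14 and 14 of 14 cells of DP 1 and in every cell of DP 2. Those of cxcr4b were 1143 and 371 CPM and 1359 and 489 CPM (-1.40 ± 0.26). A single cell held 65.1% and 35.7% of the spi2-low counts of sms, 59.6% and 43.5% of those of srgn and 43.0% and 41.0% of those of cxcr4b. Without the spi1b-rich cells, cxcr4b kept its direction (-1.04) and sms and srgn did not (1.32 and 0.90). The DP 1 cell with 43.0% of the spi2-low cxcr4b counts, at 8507 CPM, had 0 spi1b counts and stayed in that fit. The cxcr4b value there therefore leans on 1 cell in DP 1.

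**Figure D4:**
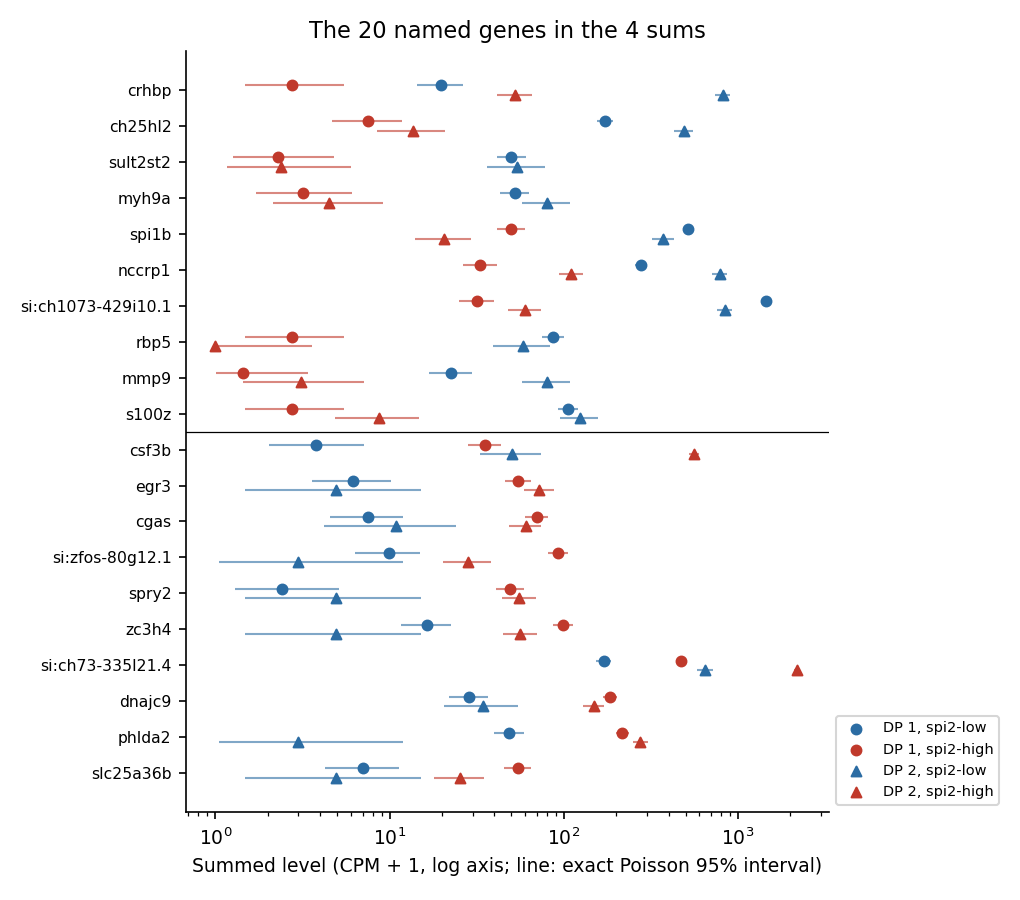
Summed level (CPM + 1, log axis) of the 20 named genes in the 4 sums, with blue for spi2-low and red for spi2-high cells, circles for DP 1, triangles for DP 2 and lines for exact Poisson 95% intervals, which cover counting error only. Red lies left of blue in both libraries for the upper 10 genes and right of it for the lower 10, as the rule required, and no gene passed the adjusted threshold.

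On the spi2-high side, genes that are switched on within minutes of a stimulus were higher in the sums. Of 20 immediate early genes 19 were tested, 0 passed, 7 were higher at an unadjusted p under 0.05 (beside 4.80% of all genes) and 17 were above 0, with a median of 0.82. Those 7 were the AP-1 subunit genes fosab (1.13 ± 0.22), jun (1.35 ± 0.29) and jund (2.42), the transcription factor genes egr3 (3.64 ± 0.63) and atf3 (1.34, and 0.16 in thinned cells), ier5 (1.17) and the antiproliferative gene btg2 (1.29). Of these, egr3 passed the filter on low counts only through the spi2-high cells, so that its place among the 7 is a description. The zinc finger gene egr1 was at -0.35, with a lower sum in spi2-high cells of DP 1 and a higher one in DP 2. In thinned cells the median of the list was 0.59, and it was 0.45 and 0.73 without the cells of 7 or more neutrophil markers and without the spi1b-rich cells.

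The immediate early genes were seen in the middle of the groups and not only in the sums. The summed level of the list in the median spi2-low, between and spi2-high cell was 4247, 6018 and 9579 CPM in DP 1 and 4849, 6735 and 12940 CPM in DP 2. The cells ranged from 393 to 38100 CPM in spi2-low and from 2310 to 17340 CPM in spi2-high cells of DP 1, and from 1378 to 11620 CPM and from 1453 to 19570 CPM in DP 2. Over all kept cells the order of medians followed spi2 in both libraries, while single cells of the groups overlapped over most of their range. In DP 2, the 4 spi2-low cells at 10% or more of mitochondrial counts were at 1378 to 2515 CPM, and the 4 below it at 7183 to 11619 CPM. In DP 1, the 8 spi2-low cells at 10% or more were at 393 to 38095 CPM, and the 6 below it at 1146 to 19228 CPM. The part of the mitochondrial share in the level of the immediate early list was not tested. This list also responds to cell dissociation and sorting, and the part of handling in its difference was not tested. Without cells at 10% or more of mitochondrial counts the median fitted difference of its genes, from the sums, was 0.75.

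**Figure D5:**
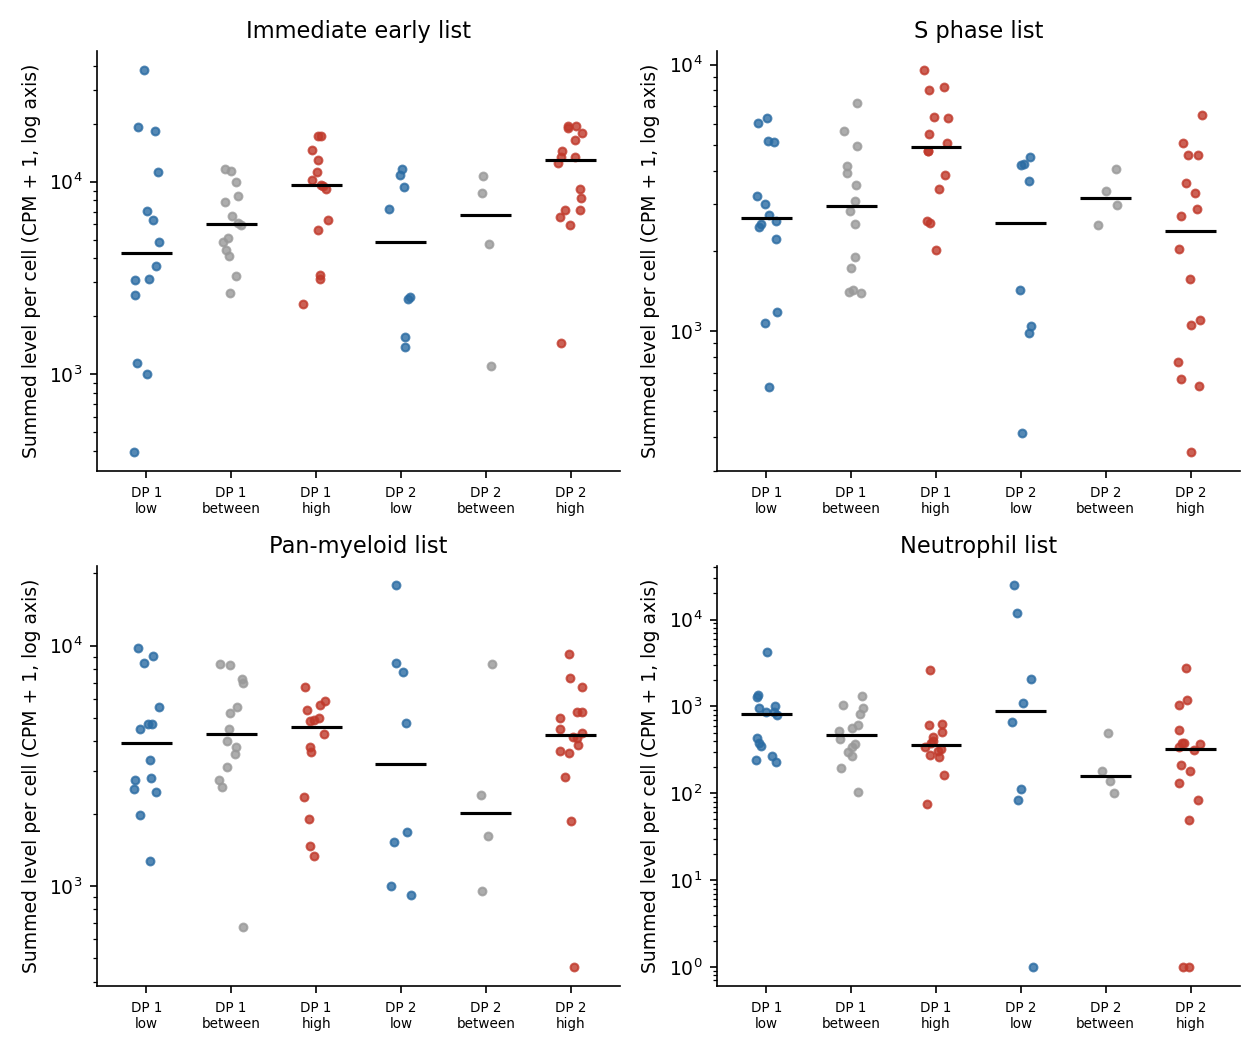
Summed level (CPM + 1, log axis) of the immediate early, S phase, pan-myeloid and neutrophil lists, with 1 point per kept cell by library and spi2 group and a bar at the median. The median of the immediate early list goes up from spi2-low to between to spi2-high cells in both libraries, the S phase median does so in DP 1 alone, and the pan-myeloid median is no higher in spi2-low than in spi2-high cells.

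The leading members were followed singly. Summed fosab was at 832 and 1672 CPM in spi2-low and spi2-high cells of DP 1 and at 1068 and 2044 CPM in DP 2, and the median cell at 476 and 1472 CPM and at 244 and 1449 CPM. Summed jun was at 345 and 722 CPM and at 382 and 994 CPM. Summed egr3 was at 5.14 and 53.8 CPM and at 3.94 and 71.2 CPM, found in 5 of 14 and 8 of 14 cells of DP 1 and in 2 of 8 and 9 of 16 of DP 2. After thinning egr3 was found in 2 of 14 and 5 of 12, and in 0 of 6 and 8 of 15 cells.

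Signalling genes were among the named genes of this direction. The gene spry2, a feedback inhibitor of receptor tyrosine kinase signalling, was at 1.40 and 48.2 CPM in DP 1 and at 3.94 and 54.5 CPM in DP 2 (4.73 ± 0.81). It passed the filter on low counts only through the spi2-high cells, so that these values are a description. It was found in 1 of 14 and 9 of 14 cells and in 2 of 8 and 9 of 16, and after thinning in 1 of 14 and 6 of 12 and in 0 of 6 and 7 of 15. The granulocyte colony-stimulating factor gene csf3b was at 2.80 and 34.3 CPM and at 49.2 and 559 CPM (3.74 ± 0.47), with 79 and 800 counts in the spi2-high cells of DP 1 and DP 2. These came from few cells. Most spi2-high cells of DP 1 had none, and the highest was at 343 CPM. In DP 2 the leading cells were at 4571, 3831 and 2800 CPM, and the next at 633 CPM. The DNA sensor gene cgas (3.27 ± 0.57), phlda2 (2.86 ± 0.47), the zinc finger gene zc3h4 (2.88 ± 0.54) and si:zfos-80g12.1 (3.44 ± 0.59) were found in 5 to 11 of the spi2-high cells of each library and in 7 or fewer of the spi2-low cells.

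The mitochondrial carrier gene slc25a36b (3.12 ± 0.63) rests on 1 cell in DP 1, which held 96.7% of its spi2-high counts. The gene si:ch73-335l21.4 was the most abundant of the 10, at 168 and 471 CPM in DP 1 and at 646 and 2177 CPM in DP 2 (1.78 ± 0.28). It had a count in 13 of 14 cells of both groups in DP 1. A gene outside the rule, the deoxyribonuclease-like gene dnase1l4.1, was at 169 and 551 CPM and at 65.0 and 450 CPM (2.15 ± 0.43), with cells between the limits at 303 and 241 CPM.

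The uracil-DNA glycosylase gene unga was chosen after its values were seen. It passed the filter on low counts only through the spi2-high cells, so that its values are a description. It was at 0.467 and 148 CPM in DP 1, and at 0 counts and 76.1 CPM in DP 2. In the spi2-low cells of both libraries it had 1 count, against 450 in the spi2-high cells. It was found in 1 of 14 spi2-low and 9 of 14 spi2-high cells of DP 1 and in 0 of 8 and 5 of 16 cells of DP 2. After thinning the numbers were 1 of 14 and 7 of 12, and 0 of 6 and 3 of 15. Cells between the limits were intermediate, at 29.5 CPM in 7 of 14 cells and at 9.26 CPM in 1 of 4 cells.

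The histone co-chaperone gene dnajc9 was at 27.6 and 184 CPM in DP 1 and at 33.5 and 147 CPM in DP 2 (2.67 ± 0.44). The replication clamp gene pcna, also chosen after its values were seen, was at 654 and 1530 CPM and at 408 and 714 CPM (1.19 ± 0.25), with cells between the limits at 1144 and 1015 CPM. Of 22 S phase genes all 22 were tested, 0 passed, 5 were higher at an unadjusted p under 0.05 (beside 4.80% of all tested genes) and 19 were above 0 (beside 52.1%). Their median was 0.60, and 0.39 over 18 genes in thinned cells. Beside unga and pcna those 5 were the thymidylate synthase gene tyms (1.90, and 0.06 in thinned cells), the ribonucleotide reductase gene rrm2 (1.33) and the single-strand binding protein gene rpa2 (0.98). Since unga passed the filter on low counts only through the spi2-high cells, its place among the 5 is a description and no support.

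The S phase list differed between the libraries. Its summed level was 2442 and 4914 CPM in spi2-low and spi2-high cells of DP 1 and 2328 and 2543 CPM in DP 2, and the median cell was at 2668 and 4915 CPM and at 2536 and 2368 CPM. The same direction of summed CPM in both libraries was found for 11 of the 22 genes, beside 51.1% of all tested genes. After TMM scaling, the median difference of the 22 genes was 0.96 in DP 1 and 0.57 in DP 2, beside 0.03 and 0.27 over all tested genes. Of 19 tested genes of G2 and mitosis, 7 were above and 12 below 0, with a median of -0.17, and 0 had an unadjusted p under 0.05. The median of that list was -0.50 in DP 1 and 1.59 in DP 2. Under alternatives it was at 0.67 without the deepest cell of each sum, 1.03 without cells of 7 or more neutrophil markers, 1.08 without the spi1b-rich cells, 0.13 in thinned cells and -0.34 without cells at 10% or more of mitochondrial counts.

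Heat shock genes were higher in the sums of spi2-high cells in both libraries. Of 10 members 7 were tested, 0 passed and 4 were higher at an unadjusted p under 0.05 (beside 4.80% of all tested genes), namely hsp70.1 (1.26), hsp70.2 (1.25), hsp70.3 (2.15 ± 0.41) and hsp70l (1.27). These are near-identical inducible copies that may share counts, so they are not 4 separate observations. Summed hsp70.3 was at 6.54 and 84.2 CPM in DP 1 and at 319 and 822 CPM in DP 2. The other tested members, hspa8 (0.28), hsp90aa1.2 (0.12) and hspa4a (-0.07), were nearer the median of all genes. The median of the list was 1.25, and it was 0.70 in thinned cells and 0.59 without the spi1b-rich cells.

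Regulators of blood emergence had small or poorly counted differences. Summed myb was at 335 and 269 CPM in spi2-low and spi2-high cells of DP 1 and at 162 and 99.1 CPM in DP 2 (-0.33 ± 0.32, adjusted p = 0.734 by edgeR quasi-likelihood with Benjamini-Hochberg). It was found in 11 of 14 and 12 of 14 cells and in 8 of 8 and 13 of 16. Counts of runx1 came from 6 cells of both groups together, at 21.5 and 0.434 CPM and at 9.85 and 10.5 CPM, in opposite directions in the libraries (-2.08 ± 1.34).

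The gene gata2b, which acts upstream of runx1 in zebrafish hemogenic endothelium, had 0 counts in spi2-low and 16.9 CPM in spi2-high cells of DP 1, and 7.88 and 34.9 CPM in DP 2 (3.76 ± 1.35). It was found in 7 cells of both groups together, and 1 cell held 97.4% of the DP 1 counts. The LIM-domain gene lmo2 was at 157 and 208 CPM and at 49.2 and 120 CPM (0.75 ± 0.42, and 0.07 in thinned cells), and gfi1aa stayed at 10.4 CPM or less in the 4 sums. The hematopoietic gene tal1 was at 50.0 and 48.6 CPM in DP 1 and at 0 counts and 6.28 CPM in DP 2. Of 11 tested progenitor genes 8 were above 0 (beside 52.1% of all tested genes) with a median of 0.39, gata2b alone had an unadjusted p under 0.05, and 5 went the same way in both libraries. The sign of that median turned to -0.31 over 5 genes in thinned cells, to -0.21 without cells of 7 or more neutrophil markers and to -0.18 without the spi1b-rich cells.

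The other ETS-family genes had smaller or mixed differences. Of 10 tested members, 3 were above and 7 below 0, the median was -0.28 (0.11 over 6 genes in thinned cells), and spi1b alone had an unadjusted p under 0.05. The second PU.1 gene, spi1a, was at 9.81 and 2.17 CPM in DP 1 and at 5.91 CPM and 0 counts in DP 2 (-2.43 ± 1.32). It passed the filter on low counts only through the spi2-low cells, so that these values are a description. The endothelial members fli1a (-0.17) and fli1b (-1.19) went in opposite directions in the libraries.

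Of the draculin-like zinc finger genes, which are expressed in zebrafish lateral plate mesoderm and early blood, 5 of 8 were tested with a median of 0.53, and of -0.02 in thinned cells. The founding member drl was at 23.8 and 183 CPM in DP 1 and at 31.5 and 92.9 CPM in DP 2 (2.67 ± 0.51), but 1 cell held 88.6% of the counts in spi2-high cells of DP 1 and the thinned value was 0.96. Its relatives blf and znfl2a had higher sums in spi2-high cells of DP 1 but lower sums in DP 2.

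Few lymphoid genes could be tested (2 of 18), and the lymphoid regulator ikzf1 was at 173 and 95.5 CPM in DP 1 and at 94.6 and 124 CPM in DP 2. Endothelial genes, of which 9 of 29 were tested, had a median of 0.06 (-0.87 over 4 genes in thinned cells) and 0 with an unadjusted p under 0.05. Their summed level was 298 and 270 CPM in spi2-low and spi2-high cells of DP 1 and 303 and 608 CPM in DP 2, against 2224 and 1771 CPM in the cells with cdh5 counts. The DP 2 sum holds the spi2-high cell at 4143 CPM, while the median cells were at 465.5 and 281 CPM in DP 1 and at 348 and 266 CPM in DP 2. Of 4 tested erythroid genes only the embryonic globin hbae1.1 had an unadjusted p under 0.05 (1.24), and gata1a had 0 counts in every group. No macrophage gene was tested, with summed levels from 0 to 19.1 CPM in the 4 sums. Of 4 tested thrombocyte genes 3 were below 0, with a median of -1.10, and 0 had an unadjusted p under 0.05. That median was -0.35 without the spi1b-rich cells and 0.04 over 2 genes in thinned cells. Ribosomal protein genes had a median of 0.23, 0.05 in DP 1 and 0.42 in DP 2, with 78 of 83 above 0 (beside 52.1% of all tested genes) and 0 at an unadjusted p under 0.05.

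Cells between the spi2 limits, which the test did not use, were compared by value alone. In DP 1 their level lay between those of the spi2-low and spi2-high cells for 7 of the 10 named genes higher in spi2-high cells and for 8 of the 10 lower ones. In DP 2, with only 4 such cells, it did so for 4 of 10 and 3 of 10. Both groups were needed to choose the named genes, so these counts describe an order and test nothing.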

How the data were processed

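Single cells were sorted by reporter and profiled by STRT-seq in 2 libraries, DP 1 and DP 2. The values deposited by the authors are raw whole-number counts for each gene in each cell and were not altered. The submitters' processing notes name HISAT2 2.1.0, Trimmomatic 0.36 and the build GRCz11, without saying which assay each served. The counting tool, any collapse of identical molecules and the use of strand are not given in the sources, so near-identical and antisense genes cannot be told apart. The table names 19831 genes by symbol, 15289 with a count, of which the Ensembl name table held 14456. No coordinates are printed. No 2 cells had identical counts, no doublet caller was run on singly sorted cells, and 1 cell was absent from the deposited cell table. The SP library and further DP 2 cells of that table were not analysed here.

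Members, gene lists and limits were chosen with earlier results of these data known. Cells are not replicates, so counts were summed per library and spi2 group and tested with edgeR 4.0.16 in R 4.3.3 (TMM scaling, filterByExpr, two-sided quasi-likelihood test with 1 residual degree of freedom, Benjamini-Hochberg over all tested genes, threshold 0.05). Library was a block because both sums of a number come from the same library. The genes spi2, cdh5 and npsn counted towards library sizes and were not tested. Fold differences are as fitted. DESeq2 1.42.0 and limma 3.58.1 were alternatives, and DESeq2 gave 4803 genes an adjusted p. For equal depth, counts of each kept cell were drawn down to 20294, at the 10th percentile of totals, so that 63 cells stayed and 7 shallower ones were left out. At that depth 1 count is 49.3 CPM. The test was also run on simulated counts, and the outcome of that run is not given here.

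Named genes are those with the same direction of summed CPM in both libraries and the smallest unadjusted p, 10 per direction, since none passed. Blood regulators and members of the progenitor, ETS, myeloid, draculin-like and lymphoid lists could also be named. Members of the immediate early, S phase, heat shock, neutrophil, endothelial and erythroid lists other than egr3 and mmp9, which it named, and sms, srgn, cxcr4b, unga and dnase1l4.1, fall outside that rule and were chosen after their values were seen. Intervals cover counting error only. A single pan-myeloid list member is not reported here by name.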

Additional observations from a re-analysis of the deposited data

How the results depend on the processing

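For the count of genes called (0 higher and 0 lower), DESeq2 gave 11 and 14, limma voom 19 and 18 and edgeR's legacy quasi-likelihood method 16 and 15. Giving each cell equal weight (limma on mean CPM with 1 added) called 3 lower, the mitochondrially encoded mt-co2, mt-atp6 and mt-co3, and 0 higher. The cause of these differences was not tested. The paired fit, with the replicate block, is the reported one, and with no replicate block 0 genes were called, 472 at an unadjusted p under 0.05. The remaining settings also called 0, and without either library no count can be made, because no residual degrees of freedom are left. Unadjusted totals ranged from 25 of 1470 genes without cells holding npsn counts to 701 of 13499 with no filter, against 588 in the reported fit.

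Of 713 alternative values for 39 genes, 695 kept their direction. The 20 genes of the naming rule among them were picked by direction in the same data, and several settings only fit the same sums again. The tally is therefore a description and no support. Without cells with npsn counts, si:ch73-335l21.4 was at -0.29, phlda2 at -0.97, jun at -0.73 and cebpa at 0.45. That setting left 2 spi2-low and 2 spi2-high cells in DP 1, and 2 and 9 in DP 2, so these values rest on few cells. Without cells at 200 CPM or more of spi1b, crhbp was at 0.24, nccrp1 at 1.41, sms at 1.32, srgn at 0.90, cebpa at 1.65, lmo2 at -0.088 and cebp1 at 0.48. Without cells of 7 or more neutrophil markers, nccrp1 was at 0.46, sms at 0.007 and cebpa at 0.45. With a low group of 0 spi2 counts cxcr4b was at 0.024, with a high group from 100 CPM myb was at 0.04, and without cells with kdrl counts cebpa was at 0.061. Without replicate 1 runx1 was at 0.28 and without replicate 2 at -5.02. The exclusions by spi1b, by neutrophil markers and by mitochondrial share were chosen after the data were seen. The exclusion by spi1b removed spi2-low cells alone, 14 to 12 in DP 1 and 8 to 5 in DP 2. With 4 sums and 1 residual degree of freedom, no difference given here passed the adjusted threshold of the reported fit, and genes below about 49.3 CPM rest on 1 count in a thinned cell.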

Other observations

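The cells set aside by the rule differed in spi2 and in spi1b. The 11 cells with cdh5 counts had spi2 at 901 CPM in DP 1 (found in 5 of 6 cells) and 381 CPM in DP 2 (5 of 5), and spi1b at 212 CPM and 0 counts. The DP 1 sum of spi2 came largely from cells at 3631 and 1424 CPM. The median cell with cdh5 counts was at 129 CPM of spi2 in DP 1 and at 335 CPM in DP 2. In DP 1, 1 cell held 96.4% of the spi1b counts of these cells. The 7 cells with high npsn had spi2 at 5.04 CPM (4 of 5 cells) and 6.52 CPM (1 of 2) and spi1b at 1633 and 1031 CPM. The immediate early gene fosab was at 1917 and 3509 CPM in the cells with cdh5 counts and at 464 and 58.7 CPM in those with high npsn. These are values of cells chosen by cdh5 and npsn and were not tested.

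The keratin gene krt8, a member of the epidermis list, was at 223 CPM in spi2-high cells of DP 2 against 9.85 CPM in spi2-low cells. Of its spi2-high counts there, 82.2% lay in 1 cell. In DP 2 cells with cdh5 counts krt8 was at 717 CPM and found in 5 of 5 cells, so it did not mark epidermis alone. The spi2-high cell of DP 2 with the endothelial list at 4143 CPM also had the epidermis list at 4765 CPM. The neural gene gap43 was at 106 CPM in spi2-low cells of DP 1 against 0.434 CPM in spi2-high cells, with 99.6% in 1 cell.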
